A study of Mus musculus with 2 samples.

Results

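The internal exons described here are the 77435 distinct exons of 12794 autosomal protein-coding genes that are neither the first nor the last of their transcript, are 80 to 300 bp long and lie more than 2 kb from any transcription start site (TSS). They were taken from the longest basic transcript of each of 20807 genes in GENCODE vM21, which holds 160902 internal exons in all, of which 124468 had the required length. The rule itself uses no measured value. The coding part of the name fits most of them, as 74836 exons (96.6%) were entirely coding, 1890 were partly coding and 709 were not coding in the chosen transcript. Their median length was 135 bp, their median place in the transcript was exon 9 and their median distance to the nearest TSS was 8065 bp. In the genome sequence 99.8% of them followed an AG and 99.0% were followed by a GT, the dinucleotides of the common acceptor and donor splice sites. The exons held 280559 reference CpGs, with a median of 3 per exon, and 6182 exons held none.

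SCoTCH-seq reads unmodified cytosine (C), methylcytosine (mC) and its oxidised form hydroxymethylcytosine (hmC) on both strands of 1 DNA fragment, so that each read pair assigns a CpG site to 1 of 9 CpG states. It was run on genomic DNA from E14 mouse embryonic stem cells, an unmodified cell line grown on gelatin in serum with leukaemia inhibitory factor (LIF), from 2 passages called replicate 1 and replicate 2. There was 1 condition and no control group, so the comparisons are between places in the same genomes, and every level is an average over the cells of a culture. Replicate 1 held 143497239 calls at 13676795 CpG sites with a median depth of 10, and replicate 2 held 31306245 calls at 4918612 sites with a median depth of 6.

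A CpG site pairs 2 cytosines across the double helix. The states are written here as CC (no modification), MM (mC on both strands), MC/CM (mC opposite C), HC/CH (hmC opposite C), HM/MH (hmC opposite mC) and HH (hmC on both). DNA methyltransferases keep most CpGs in the bodies of genes methylated, and TET enzymes oxidise mC to hmC, which is found in the bodies of transcribed genes. Exons are as a rule richer in CpG than the introns around them, and their edges are bound as RNA by the spliceosome once the gene is transcribed.

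Stretches of 5 coding exons show the kinds of sequence that the extremes of the data came from, with up to 20 bases of intron on either side. They were taken from the top of each of the rules for named exons given further on: Pgc and Adam19 for a high HC/CH level, Ksr2, the second by its rule, for a high HM/MH level, and Arid3c and Grid2ip for a low MM level. Each is written 5′ to 3′ on the sense strand of the gene from GRCm38 (mm10), and capitals mark the CpGs.
Pgc exon 6, chr17:47732365-47732524, plus strand: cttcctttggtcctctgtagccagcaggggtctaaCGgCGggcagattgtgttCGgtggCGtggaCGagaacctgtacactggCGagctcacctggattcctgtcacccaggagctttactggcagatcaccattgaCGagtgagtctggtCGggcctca
Adam19 exon 9, chr11:46121400-46121606, plus strand: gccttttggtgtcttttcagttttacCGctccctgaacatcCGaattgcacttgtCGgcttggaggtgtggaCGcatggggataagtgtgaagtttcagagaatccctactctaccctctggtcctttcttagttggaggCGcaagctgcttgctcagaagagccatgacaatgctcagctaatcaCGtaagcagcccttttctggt
Ksr2 exon 2, chr5:117500693-117500873, plus strand: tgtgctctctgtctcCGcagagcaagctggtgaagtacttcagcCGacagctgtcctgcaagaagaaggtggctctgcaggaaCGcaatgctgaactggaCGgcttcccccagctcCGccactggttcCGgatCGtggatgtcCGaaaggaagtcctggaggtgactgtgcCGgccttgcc
Arid3c exon 5, chr4:41725741-41726040, minus strand: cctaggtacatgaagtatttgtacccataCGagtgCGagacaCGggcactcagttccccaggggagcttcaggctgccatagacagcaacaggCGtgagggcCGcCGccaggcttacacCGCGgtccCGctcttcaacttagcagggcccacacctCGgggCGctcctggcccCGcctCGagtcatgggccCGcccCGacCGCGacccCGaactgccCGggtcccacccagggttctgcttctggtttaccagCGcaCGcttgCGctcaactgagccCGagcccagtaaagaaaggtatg
Grid2ip exon 15, chr5:143387298-143387534, plus strand: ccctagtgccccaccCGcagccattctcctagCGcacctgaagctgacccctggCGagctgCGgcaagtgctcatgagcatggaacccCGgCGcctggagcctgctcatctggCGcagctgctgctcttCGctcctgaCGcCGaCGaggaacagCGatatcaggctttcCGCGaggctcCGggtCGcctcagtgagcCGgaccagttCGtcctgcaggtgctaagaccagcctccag
The Arid3c and Grid2ip stretches hold 23 and 18 CpGs, whereas the Pgc and Adam19 stretches hold 8 and 6. Only part of the exon CpGs marked in Arid3c and Grid2ip was measured in each replicate.

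Sites in the exons were slightly less well covered than those in the introns next to them. At least 5 calls, the minimum in the deposited files, were present at 207468 exon CpGs in replicate 1 (73.9%) and at 74911 in replicate 2 (26.7%). The mean depth of these sites was 9.53 calls in replicate 1 and 6.29 in replicate 2. In the 500 bp of intron on either side of each exon, 434118 (74.8%) and 169298 (29.2%) CpG sites were measured, at mean depths of 10.5 and 6.42. Introns of the same genes beyond these flanks, called deep intron here, gave 3354010 and 1248115 sites. A covered CpG site was present in 65298 exons in replicate 1 and in 36444 in replicate 2, and 11158 exons had none in either. All levels are means of the percentages of calls at each site, without correction unless it is named.

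Most exon CpG sites were methylated on both strands. MM was 59.3% in replicate 1 and 64.5% in replicate 2 (mean 61.9% ± 3.7, SD, n = 2), and CC was 18.4% and 14.3%. MC/CM followed with 11.2% and 12.9%. The most common state with hmC was HC/CH, at 5.55% and 4.79% (mean 5.17% ± 0.54, SD, n = 2). HM/MH was 4.93% and 3.25%, and HH was 0.632% and 0.237%. Miscalls differed between the replicates too, as synthetic duplexes read in the same libraries gave HM/MH in 4.51% of the calls of MM sites in replicate 1 and in 0.467% in replicate 2. After correction with each replicate's own call rates HM/MH of exons was 2.09% and 2.86%, and HC/CH was 5.13% and 4.81%. HH was then 0.117% and 0.217%, higher in replicate 2 where the values as called were higher in replicate 1.

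Exons held more hmC and fewer sites with mC on 1 strand than the introns on either side. HC/CH was 5.04% and 4.17% in the flanks, which puts exons 0.505 and 0.615 percentage points higher in replicate 1 and replicate 2. HM/MH of the flanks was 4.55% and 2.79%, and exons were 0.386 and 0.458 points higher. HH was 0.117 and 0.0623 points higher in exons. MC/CM was 12.9% and 14.6% in the flanks, and exons were lower, with differences of -1.66 and -1.69 points. Each of these 4 differences had the same sign on all 19 autosomes in both replicates. Their adjusted p was 1.21e-05 in each case by an exact sign-flip permutation test over the autosomes, two-sided, with Benjamini-Hochberg adjustment over 54 tests. Before adjustment it was 3.8e-06, the smallest p that the exact test over 19 autosomes can give, and since the autosomes are blocks of 1 library and not replicates, it describes evenness along the genome. MM was higher in exons by 0.607 and 0.941 points, with 15 and 16 autosomes on that side (adjusted p = 0.0169 and 0.00327 by the same exact test). CC differed by 0.0506 and -0.387 points and did not pass (adjusted p = 0.746 and 0.0865, same exact test). With own call rates the differences in HC/CH were 0.569 and 0.649 points and those in HM/MH 0.372 and 0.449 points.

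**Figure D1:**
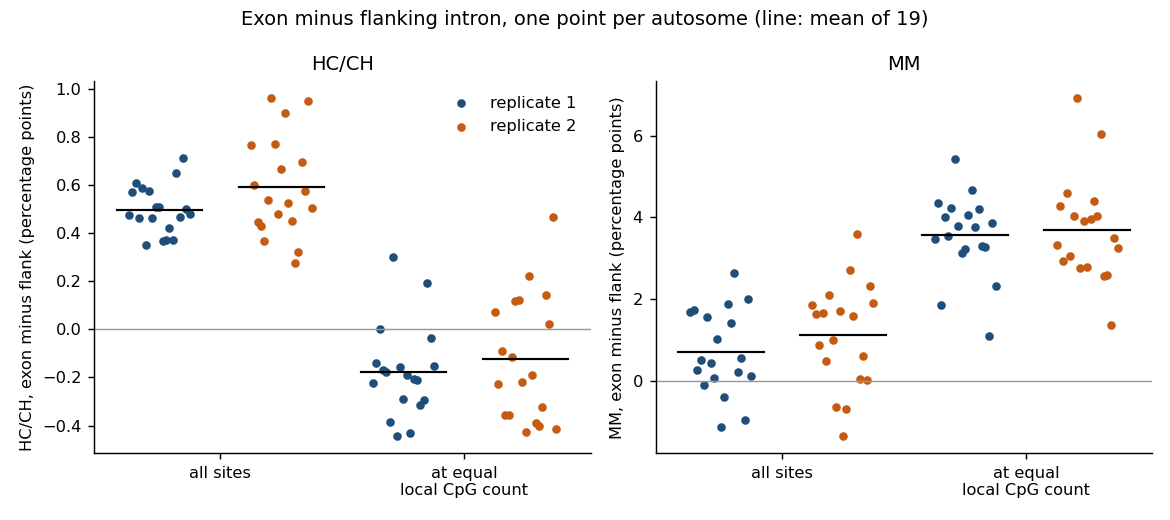
Difference between exon and flanking intron in percentage points for HC/CH (left) and MM (right), with 1 point per autosome, the lines at the mean of the 19, and the replicates in colour. Over all sites every autosome is above 0 for HC/CH, and at equal local CpG count most points fall below 0 (17 of 19 in replicate 1 and 12 of 19 in replicate 2), whereas for MM 15 and 16 of 19 points are above 0 over all sites and all are above 0 at equal count.

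The excess of HC/CH in exons was not present among sites with the same number of CpGs around them, and that of HM/MH was smaller. The local CpG count was taken as the number of reference CpGs within 100 bp on either side, the site included, and averaged 5.61 and 5.36 at exon sites against 3.62 and 3.47 at flank sites. HC/CH rose with this count in exons from 3.63% and 2.90% at isolated CpGs (count of 1) to 7.21% and 6.80% at a count of 10 or more. In the flanks it rose from 3.82% and 2.93% to 6.75% and 6.61%, and in deep intron from 3.55% and 2.87% to 6.11% and 6.12%. MC/CM fell along the same axis in exons, from 16.8% and 17.9% to 6.87% and 8.38%. Compared within 7 classes of the count, exons were lower in HC/CH than flanks, with differences of -0.182 points (17 of 19 autosomes lower, adjusted p = 0.00232, exact sign-flip test) and -0.135 points (12 of 19 lower, adjusted p = 0.0781, exact). HC/CH was lower in exons in 6 of 7 classes in replicate 1 and in 5 of 7 in replicate 2, the exceptions being the densest ones. HM/MH then differed by 0.0926 and 0.0119 points, MC/CM by 0.212 and 0.0538 points and HH by 0.0234 and -0.00834 points. Of these, only HM/MH and MC/CM of replicate 1 passed (adjusted p = 0.00691 and 0.00168, exact). With own call rates the HM/MH difference at equal count was -0.0851 and 0.000969 points.

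**Figure D2:**
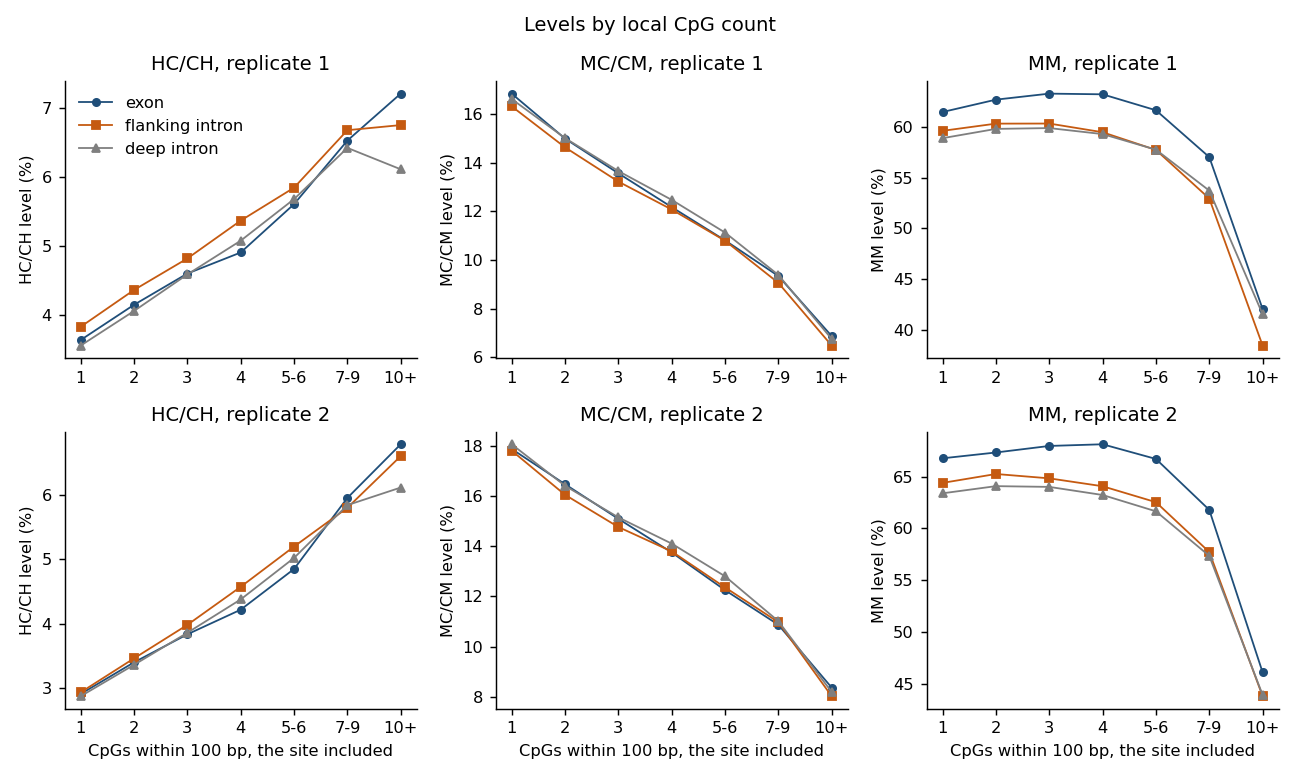
Levels of HC/CH, MC/CM and MM in percent by the number of CpGs within 100 bp, the site included, for exons, flanking introns and deep introns, with replicate 1 in the upper row and replicate 2 in the lower row. The HC/CH and MC/CM curves of the 3 regions have the same course, with HC/CH of replicate 1 at 7.21%, 6.75% and 6.11% in the densest class of exons, flanks and deep introns, and the MM curve of exons lies above the other curves in every class.

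At equal local CpG count the exons stood out by their methylation instead. MM was higher in exons than in flanks in all 7 classes in both replicates. In sites with a count of 4, for example, exons had 63.2% and 68.1% MM and flanks 59.5% and 64.1%. At a count of 10 or more the exons had 42.1% and 46.1% and the flanks 38.4% and 43.8%. Over the classes MM was 3.58 and 3.59 points higher in exons and CC was lower, with differences of -3.73 and -3.51 points. Both had 1 sign on 19 of 19 autosomes in each replicate (adjusted p = 1.14e-05, exact sign-flip test). The difference over all sites was 0.607 and 0.941 points, and in every region the sites with the highest count, of which exons held more, had the least MM. Averaged per exon over the exons with sites in both places, MM was 1.66 and 1.77 points higher in the exon than in its own flanks, on 19 of 19 autosomes in both replicates.

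Methylation changed at the edges of the exon, whereas HC/CH changed gradually across them. Over the last 40 bp of intron before the acceptor edge, MM was 56.0% in replicate 1 and 62.4% in replicate 2. In the first 40 bp of the exon it was 58.9% and 64.4%, so that it was 2.99 and 2.07 points higher inside, on 19 of 19 autosomes in both replicates. At the donor edge MM was 60.0% and 65.0% in the last 40 bp of exon and 57.9% and 62.9% in the first 40 bp of intron, a difference of 2.09 and 2.11 points on 19 and 17 autosomes. These stretches were chosen after the profile was seen and carry no test. The introns next to the edge were also below introns farther away, as MM 300 to 500 bp from the acceptor edge was 59.2% and 63.7%. CC did the reverse, with 21.1% and 16% in the last 40 bp of intron against 18.4% and 14.2% in the exon. HC/CH was 5.39% and 4.44% on the intron side of the acceptor edge and 5.39% and 4.61% on the exon side. At the donor edge it was 5.57% and 4.75% on the exon side and 5.61% and 4.64% on the intron side. The local CpG count of the sites was alike on both sides, at 5.14 and 4.95 inside against 4.92 and 4.68 outside the acceptor edge, and was 3.2 and 3.1 at 300 to 500 bp.

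**Figure D3:**
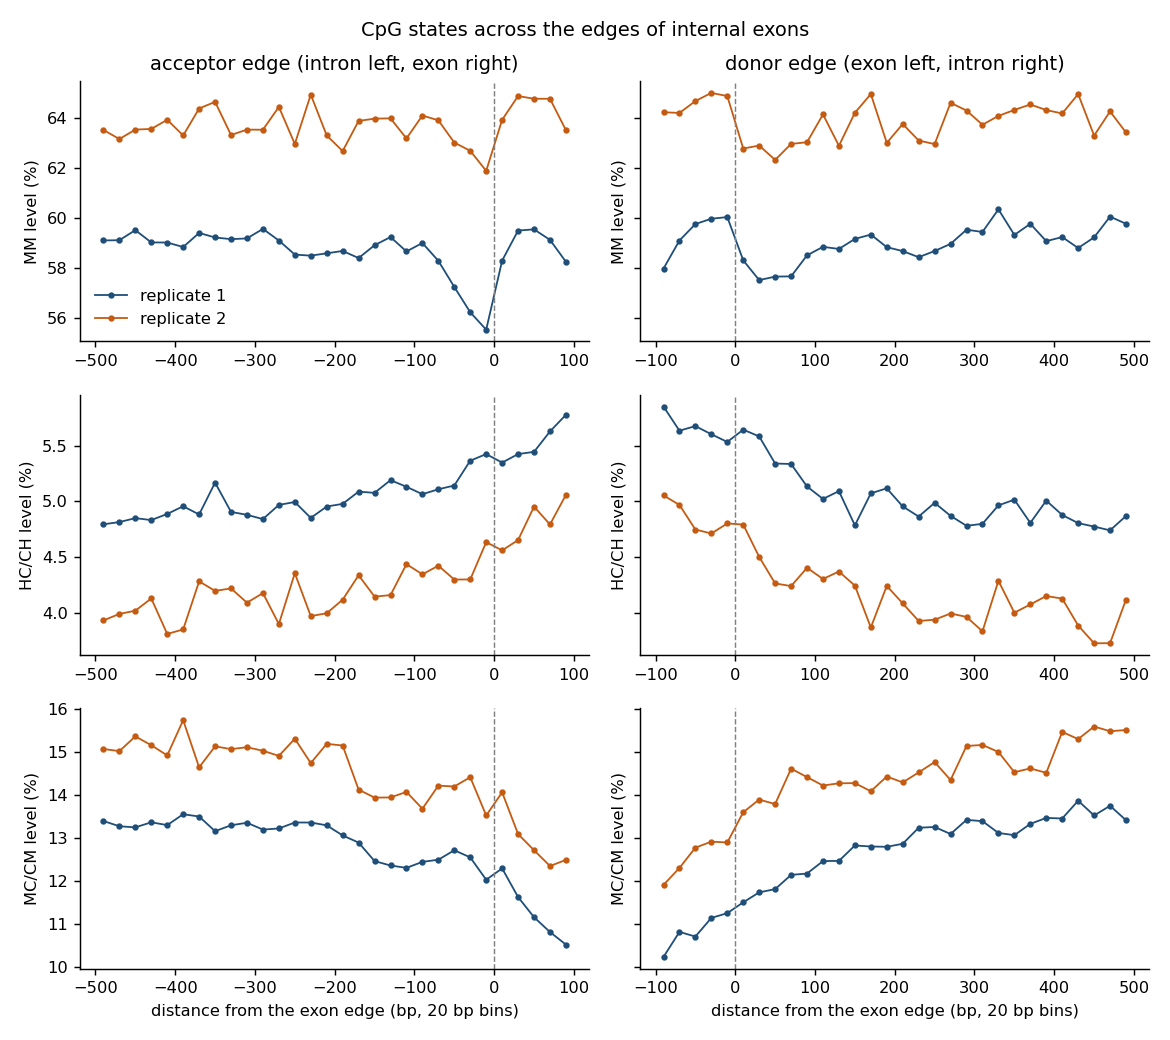
Levels of MM, HC/CH and MC/CM in percent in 20 bp bins across the acceptor edge (left) and the donor edge (right), with the dashed line at the edge and each replicate as a line. MM of replicate 1 falls to 55.5% in the last bin of intron before the exon and is 59.5% from 20 to 40 bp inside, while HC/CH rises towards the exon from both sides without a step at the line.

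The flanks on the acceptor side and on the donor side had nearly the same levels as a whole. HC/CH was 5.03% and 4.18% on the acceptor side and 5.06% and 4.16% on the donor side, and did not pass the test (adjusted p = 0.452 and 0.689, exact sign-flip test). HM/MH differed by -0.0207 and -0.109 points and MM by -0.288 and -0.0699 points, each passing in 1 replicate only. Inside the exon, sites within 25 bp of an edge had slightly less hmC than the middle. HM/MH was 4.81% and 3.1% near the edge against 4.99% and 3.32% in the middle (adjusted p = 0.000265 and 0.0197, exact). HC/CH was 5.44% and 4.70% against 5.60% and 4.83%, which passed in replicate 1 only (adjusted p = 0.000519 and 0.138, exact). The sites near the edge also had fewer CpGs around them, 5.14 and 4.93 against 5.83 and 5.57, and the part of this in the difference was not tested.

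A CpG can lie on the splice site itself, and those sites were chosen for description after their values were seen. At 1974 reference CpGs the last exon base is C and the first intron base is G, so that the CpG lies across the donor edge. These sites, 1568 and 627 of them measured, had MM of 61.2% and 64.6%, HC/CH of 6.30% and 5.56% and HM/MH of 5.57% and 4.25%. CpGs whose C is the base 4 of the intron, and whose G is thus the conserved base 5 of the donor site, numbered 1353 and 490. They had HC/CH of 6.32% and 5.40% and HM/MH of 6.16% and 4.49%. All flank sites with a local CpG count of 5 or 6 had 5.84% and 5.20% HC/CH and 5.09% and 3.40% HM/MH, below both kinds of site in both replicates. The bases beside the CpG were not matched here, and their part in these levels was not tested. Where the intron starts with GT, a CpG across the donor edge is followed by T. Of the flank CpGs followed by T, those in CCGT had the highest levels, 6.09% and 5.18% HC/CH and 5.05% and 3.56% HM/MH. Those in ACGT had 5.82% and 4.6% HC/CH and 4.71% and 3.02% HM/MH, and those in GCGT and TCGT were lower still in both states.

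Against deep intron the excess of hmC was again seen over all sites. At equal local CpG count it was smaller, and as called only HM/MH of replicate 1 passed. Deep intron had 4.57% and 3.84% HC/CH and 4.36% and 2.63% HM/MH, and exons were higher by 0.976 and 0.947 points in HC/CH and by 0.566 and 0.624 points in HM/MH. All 4 differences held on 19 of 19 autosomes (adjusted p = 1.21e-05, exact sign-flip test). Within classes of the local CpG count, HC/CH differed by 0.0909 and 0.00315 points (adjusted p = 0.139 and 0.58, exact). HM/MH differed by 0.108 and 0.0531 points and passed in replicate 1 only (adjusted p = 0.000139 and 0.391, exact). MM was 0.402 and 1.41 points higher in exons over all sites, which passed in replicate 2 only (adjusted p = 0.0905 and 0.0003, exact). At equal count it was 3.26 and 4.30 points higher on 19 of 19 autosomes in both replicates.

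Within the reading frame, MM was highest where the C of the sense strand was at codon position 1. A CpG at codon positions 1 and 2 is part of an arginine codon, at positions 2 and 3 it ends a serine, proline, threonine or alanine codon, and at position 3 it spans a pair of codons. MM was 60.9% and 66.4% at position 1, 59.1% and 64.3% at position 2, and 58.1% and 63.1% at position 3. Position 3 was thus lower than position 1, with differences of -2.73 and -3.30 points on all 19 autosomes in both replicates (adjusted p = 1.21e-05, exact sign-flip test). HC/CH ran the other way, with 5.28% and 4.46% at position 1, 5.60% and 4.87% at position 2 and 5.74% and 5.02% at position 3. It was 0.458 and 0.560 points higher at position 3 than at position 1, on 17 and 19 autosomes (adjusted p = 5.72e-05 and 1.21e-05, exact). HM/MH was 0.0878 and 0.252 points higher at position 3 and passed in replicate 2 only (adjusted p = 0.301 and 0.00368, exact). With own call rates it was 0.229 and 0.256 points higher and passed in both (adjusted p = 0.00491 in each, exact).

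The codon difference was also seen inside the same exons. Among exons with sites at both positions, MM was lower at position 3, with differences of -2.94 and -3.02 points, on 19 of 19 autosomes in both replicates. HC/CH was 0.416 and 0.496 points higher within exons (adjusted p = 3.81e-05 and 0.0314, exact sign-flip test). HM/MH as called differed by 0.0013 and 0.0319 points within exons and did not pass. The HM/MH difference within exons was not computed with own call rates, which had raised that over all sites in replicate 1. Within classes of local CpG count MM differed by -2.15 and -2.77 points and HC/CH by 0.318 and 0.403 points. When sites were matched in addition on the bases before and after the CpG, MM differed by -0.962 and -1.82 points and HC/CH by 0.172 and 0.315 points. The HC/CH difference of replicate 1 did not pass then (adjusted p = 0.0525, exact). HC/CH was higher at position 3 in 12 of 16 combinations of these bases in replicate 1 and in 15 of 16 in replicate 2, and MM was lower in 16 of 16 in both.

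**Figure D4:**
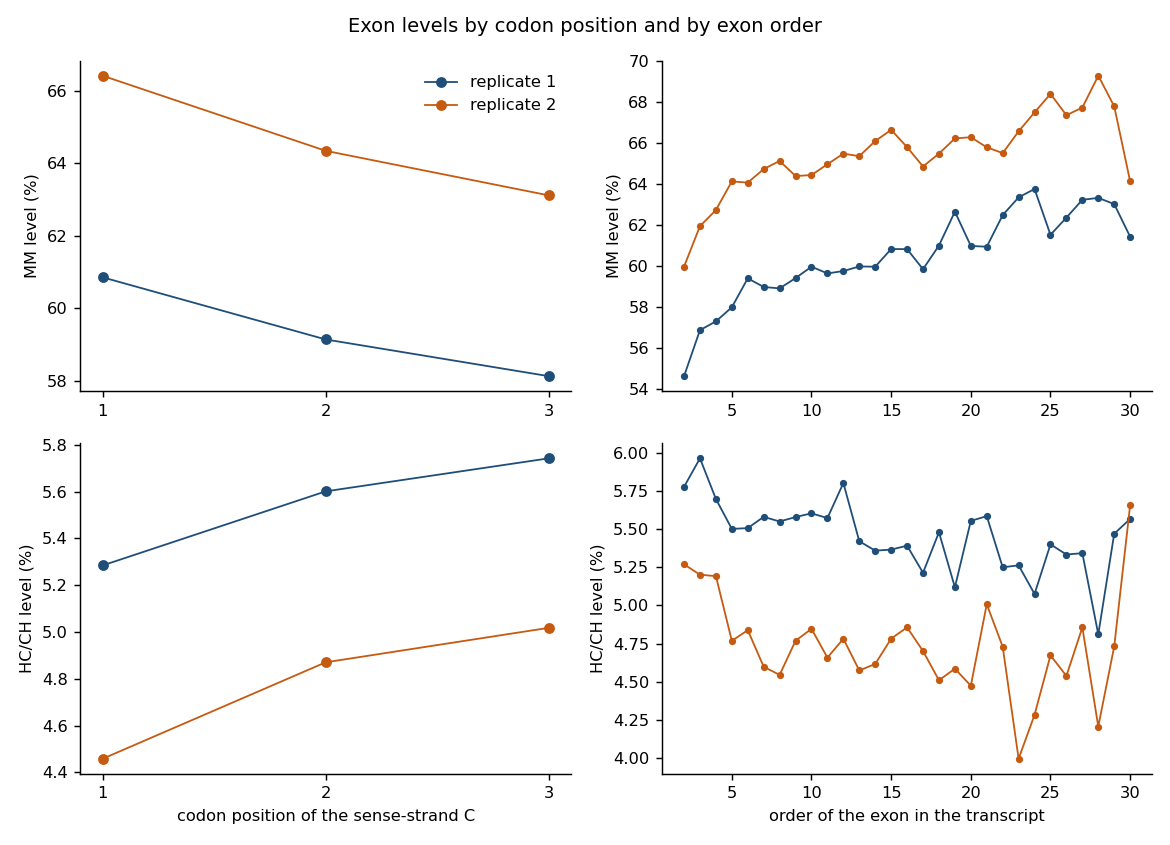
Exon levels of MM (upper row) and HC/CH (lower row) in percent by the codon position of the sense-strand C (left) and by the order of the exon in its transcript from 2 to 30 (right), with each replicate as a line. MM falls and HC/CH rises from codon position 1 to 3, and MM rises along the transcript from 54.6% and 60.0% in exon 2 to 60.0% and 64.4% in exon 10.

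HC/CH varied more between the bases next to the CpG than between exon and intron. Among the 16 combinations of the base before and after, read on the sense strand, HC/CH in exons ranged in replicate 1 from 3.88% at GCGC to 6.83% at ACGT. In replicate 2 it was 3.24% at GCGC, the lowest, 5.91% at ACGT and 6.0% at ACGG, the highest. In the flanks GCGC was also the lowest, at 3.59% and 2.89%, and CCGT the highest, at 6.09% and 5.18%, with 5.82% and 4.6% at ACGT. Call rates were not taken by these bases, and they differed between duplex sites of the same state. In replicate 2, for example, CC was called in 92.3% of calls at 1 unmodified site and in 99.3% at another. The part of miscalls in these ranges was not tested. Exons were above flanks in HC/CH in 16 of 16 combinations in replicate 1 and in 15 of 16 in replicate 2, and below them in MC/CM in 16 of 16 in both. Comparing within the combinations left the difference between exon and flank in HC/CH at 0.584 and 0.667 points. MM then differed by 0.288 and 0.724 points and passed in replicate 2 only (adjusted p = 0.123 and 0.00831, exact sign-flip test). Within classes of both the local CpG count and these bases, MM was 3.46 and 3.58 points higher in exons on 19 of 19 autosomes in both replicates, and HC/CH differed by -0.117 and -0.0897 points.

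Late exons were more methylated than early ones. Exons 10 and later had MM of 61.0% and 66.0%, and exons 2 to 4 had 56.4% and 61.7%. The difference of 4.65 and 4.32 points was present on 19 of 19 autosomes in both replicates (adjusted p = 1.21e-05, exact sign-flip test). CC was 16.7% and 12.9% in late exons against 21.1% and 16.7% in early ones. HC/CH was lower in late exons, at 5.42% and 4.63% against 5.82% and 5.22% (adjusted p = 0.000185 and 0.000119, exact), whereas HM/MH did not pass (4.95% and 3.23% against 4.97% and 3.35%). With own call rates HM/MH of late exons differed by -0.261 and -0.123 points and passed in replicate 1 only (adjusted p = 0.00396 and 0.0899, exact). The flanks shared the course of MM, from 54.5% and 59.0% around exon 2 to 59.3% and 65.1% around exon 10.

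The difference was smaller within genes. Among genes with both early and late exons, MM was 2.38 and 2.40 points higher in the late ones (adjusted p = 4.58e-05 and 0.0124, exact sign-flip test), and HC/CH differed by -0.142 and -0.103 points and did not pass. Within 10 classes of distance to the nearest TSS, MM was 3.77 and 3.60 points higher in late exons. Levels also changed with that distance itself, described here without a test. Exons 2 to 5 kb from a TSS had 56.6% and 62.1% MM and 5.92% and 5.28% HC/CH, and exons more than 100 kb away had 65.8% and 68.9% MM and 3.77% and 3.15% HC/CH. The flanks of the latter had 3.15% and 2.61% HC/CH, so both fell together.

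Exon length went with the levels as the local CpG count did. Exons shorter than 110 bp had HC/CH of 5.39% and 4.50% at a mean count of 4.70 and 4.50, and exons of 220 bp or more had 5.75% and 5.06% at 6.57 and 6.25. MM was 60.5% and 65.9% in the short class and 56.6% and 61.4% in the long one. The flanks of these exon classes lay between 4.98% and 5.10% HC/CH in replicate 1 and between 4.14% and 4.29% in replicate 2, with no such rise.

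Between exons that another basic transcript of the gene skips and exons that none skips, no difference passed the test. The latter, called constitutive here, came from genes with more than 1 basic transcript. They can include exons that no other basic transcript of the gene spans. HC/CH was 5.58% and 4.79% in 6313 and 2289 sites of skipped exons, against 5.57% and 4.79% in constitutive ones. HM/MH was 4.95% and 3.06% against 4.97% and 3.27%. MM was 58.2% and 63.6% against 59.3% and 64.7%, a difference of -1.09 and -1.07 points that did not pass (adjusted p = 0.0795 and 0.0941, exact sign-flip test) and whose values on single autosomes ran from -8.67 to 3.96 in replicate 1 and from -10.4 to 5.05 in replicate 2. Between the strands, averaged over whole exons, hmC on the sense strand opposite C was -0.0216 and -0.0437 points from hmC on the antisense strand opposite C. The differences in HM/MH (0.0550 and 0.0314 points) and MC/CM (-0.0701 and 0.0890 points) did not pass the exact test either. Such means do not show differences of opposite sign at the acceptor and donor edges, which were not tested. At the CpGs across the donor edge, mC opposite C was 6.74% and 8.38% on the sense strand and 5.13% and 5.93% on the antisense strand, also without a test.

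Single exons could be compared only where enough sites were read. At least 5 CpG sites in the exon and 5 in its flanks in each replicate were present at 440 exons, 427 of them entirely coding, which are richer in CpG than most. Across these exons, HC/CH had a median of 5.14% and 4.12%, with the 5th and 95th percentiles at 0 and 16% in replicate 1 and at 0 and 18.1% in replicate 2. MM had a median of 58.8% and 63.0%, and its 5th percentile was 3.96% and 2.84%. Set against its own flanks, the exon was higher in HC/CH in 51.4% and 46.6% of these exons, with a median difference of 0.121 and 0 points. It was higher in MM in 48.0% and 50.2%, with a median difference of -0.543 and 0.0692 points, so neither state was higher in a clear majority of these exons. In MC/CM the exon was higher in 33.9% and 36.8% only, with a median difference of -2.49 and -2.52 points. The replicates ordered the exons alike in CC (Spearman's rho = 0.821, n = 440 exons) and MM (rho = 0.768). The order was weaker in HC/CH (rho = 0.375) and HM/MH (rho = 0.302), and in the difference between exon and flanks in HC/CH it was 0.0899. These are descriptions across exons that share a library, and at this depth the HC/CH level of a single exon is coarse.

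The exons named next were ranked on their measured levels and are described without a test. With exons ordered by their lower replicate, the highest HC/CH levels were in Pgc exon 6 (27.6% and 22.6%), Adam19 exon 9 (19.7% and 19.2%), Uhrf1 exon 3 (22.7% and 18.5%), Ube3b exon 20 (19.5% and 16%) and Cib4 exon 4 (15.5% and 21.7%). Pgc encodes the stomach protease precursor progastricsin, Adam19 a membrane metalloprotease, and Ube3b a ubiquitin ligase. Uhrf1 encodes the protein that binds hemimethylated CpGs and brings DNMT1 to them. The flanks of the Pgc exon had 11.1% and 17.1% HC/CH, and those of the Adam19 exon 6.75% and 6.46%. Those of the Uhrf1 exon had 14.4% and 6.5%, those of the Ube3b exon 20.3% and 3.33%, above the exon in replicate 1, and those of the Cib4 exon 7.86% and 8.89%. The Pgc level rests on 18 of 63 calls in replicate 1 (95% interval 17.9% to 41.3%, Clopper-Pearson) and 10 of 46 in replicate 2 (10.9% to 36.4%). That of Uhrf1 rests on 9 of 39 calls (11.1% to 39.3%) and 8 of 40 (9.05% to 35.6%). Such intervals cover counting error only. They treat calls as independent, although 1 read pair can give calls at several CpGs of an exon, so they can be too narrow.

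Ordered in the same way, the highest HM/MH levels were in exons of Slc25a15 (14.9% and 13.3%), Ksr2 (18.4% and 13.2%), Gsto2 (17.7% and 12.5%), Susd5 (12.0% and 15.3%) and Polr3b (10.7% and 11.9%). Slc25a15 encodes a mitochondrial ornithine carrier, Ksr2 a scaffold of the Ras and MAP kinase pathway, Gsto2 a glutathione transferase and Polr3b a subunit of RNA polymerase III. Their flanks had lower HM/MH, for example 6.45% and 8.72% at Slc25a15 and 7.55% and 1.56% at Ksr2. At Susd5 the flanks had 5.90% and 14.2%, close to the exon in replicate 2. The replicate 2 levels rest on 4 calls each, among 28 (Slc25a15) to 33 calls.

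The lowest MM levels were in exons with few or no MM calls at the sites that were read. Arid3c exon 5, Grid2ip exon 15, Gfap exon 6 and Pitx1 exon 2 had no MM call in either replicate, and Gfi1 exon 4 had 1.30% in replicate 1 and none in replicate 2. Only part of the CpGs of each exon was read, for example 6 and 5 of 23 in Arid3c and 7 and 14 of 17 in Grid2ip. No MM call in 57 and 79 calls at Grid2ip allows a share of up to 5.26% and 3.80%, taken as 3 calls of the total, and the Clopper-Pearson 95% limits are 6.27% and 4.56%. None in 36 and 33 calls at Arid3c allows up to 8.33% and 9.09% by 3 calls, with Clopper-Pearson limits of 9.74% and 10.6%. These limits also treat calls as independent and can be too narrow. Their CC levels were between 91.7% (Arid3c) and 99.0% (Pitx1) in replicate 1. Gfap encodes the intermediate filament protein of astrocytes, Pitx1 a homeobox factor of the hindlimb, Gfi1 a zinc finger repressor of blood cells and Arid3c an ARID domain protein. The flanks were unmethylated with the exon at Pitx1 (MM of 0.781% and 1.39%) and Gfap (3.65% and 6.30%), whereas at Arid3c they had 23.9% and 43.0% MM. The 5 exons lay between 2190 bp (Pitx1) and 7989 bp (Grid2ip) from the nearest annotated TSS.

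Gene by gene, 235 genes had at least 30 exon sites and 30 flank sites in each replicate. HC/CH was higher in exons than in flanks in both replicates in 104 of them (44.3%), MM was higher in both in 114 (48.5%), and MC/CM was lower in both in 138 (58.7%). Ranked by the difference in HC/CH in the replicate nearer to 0, the largest were Itpr3 (2.75 and 3.53 points), Dock6 (2.68 and 2.61), Otog (2.60 and 2.86), Utrn (2.52 and 2.53) and Greb1l (2.53 and 2.38). Itpr3 encodes an IP3 receptor, a calcium channel of the endoplasmic reticulum, and its exons had 7.99% and 8.42% HC/CH against 5.24% and 4.89% in the flanks. Utrn encodes utrophin, a relative of dystrophin, and its exons had 5.90% and 6.03% against 3.39% and 3.51%. Among the smallest were Tnc (-2.09 and -5.29 points), Itgb4 (-1.59 and -5.70), Scn10a (-2.06 and -1.33) and Kntc1 (-1.08 and -2.65). Tnc encodes the matrix protein tenascin C, with 1.03% and 1.11% HC/CH in exons against 3.12% and 6.40% in the flanks. Scn10a encodes a voltage-gated sodium channel of sensory neurons. As members of this ranking, these genes carry no test.

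Exons of 6 gene lists were described by their pooled sites. Of 38 spliceosome and splicing factor genes 29 had member exons, and their 895 and 332 exon sites had HC/CH of 6.25% and 5.60% against 5.93% and 5.12% in the flanks. Prpf8, a core spliceosome protein, had 7.96% and 6.32% in its exons and 7.40% and 7.23% in its flanks, so the sign differed between the replicates. Snrnp200, a helicase of the U5 particle, had 2.62% and 0.647% in its exons and 3.01% and 4.56% in its flanks. Exons of 34 DNA replication genes had 6.36% and 6.04% HC/CH and their flanks 6.41% and 4.73%, so the sign differed between the replicates. Their exons had MM of 60.4% and 67.5% against 58.1% and 61.7% in the flanks. Pole, the catalytic subunit of DNA polymerase epsilon, had MM of 68.7% and 69.5% in exons and 59.5% and 62.2% in flanks. Exons of 34 chromatin and pluripotency regulators had the highest HC/CH of the lists in replicate 1, 6.86%. In replicate 2 they had 5.57%, below the replication and splicing lists. Their flanks had 6.49% and 5.87%, so here too the sign differed between the replicates. In Dnmt1, the maintenance methyltransferase, exons had 7.99% and 4.09% HC/CH and flanks 6.01% and 6.61%, so the replicates differed in sign.

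The lists of genes of differentiated tissues had lower HC/CH both in their exons and in the flanks. Exons of 34 sarcomere and muscle genes had 5.19% and 4.44%, those of 34 synapse and neuronal channel genes 4.47% and 4.31%, and those of 35 extracellular matrix genes 5.31% and 4.48%, against 5.55% and 4.79% over all exons. Their flanks had 4.31% and 3.76%, 4.0% and 2.89%, and 4.47% and 3.66% in the same order, against 5.04% and 4.17% over all flanks. No test was made between lists, and their exons lay at different distances from a TSS, on average 6472 bp in replicate 1 for the splicing list and 29000 bp for the synapse list. Ttn, which encodes the sarcomere spring titin, gave the most sites, with 188 member exons. It held 903 of the 3158 exon sites of the muscle list in replicate 1 and 350 of 1078 in replicate 2, so it weighs heavily in the pooled level. It had HC/CH of 5.18% and 3.79% in exons against 3.89% and 3.04% in flanks, and MM of 67.1% and 73.3% against 64.0% and 67.9%. Ryr1, the calcium release channel of muscle, had the lowest MM among the 4 muscle genes with most sites, 37.5% and 38.7% in exons and 39.2% and 47.2% in flanks. Unc13a, a synaptic vesicle priming factor, had 43.5% and 31.4% MM in exons and 35.6% and 36.0% in flanks, so the replicates differed in sign. In the matrix list, Hspg2, which encodes perlecan, had 8.14% and 6.55% HC/CH in its exons, and Hmcn1, which encodes hemicentin, had 3.86% and 2.08%. Among the measured genes of the lists, HC/CH was higher in exons than in flanks in both replicates in 4 of 8 muscle genes, 7 of 16 matrix genes, 1 of 4 synapse genes and none of the 2 measured genes of each of the other lists, beside 44.3% of all measured genes. MM was higher in both replicates in 6 of the 8 muscle genes, 7 of the 16 matrix genes, 2 of the 4 synapse genes, 2 of 2 replication genes, 2 of 2 chromatin genes and 1 of 2 splicing genes, beside 48.5% of all. MC/CM was lower in both replicates in 12 of the 16 matrix genes, 6 of the 8 muscle genes, 1 of the 4 synapse genes and 1 of 2 genes in each of the other lists, beside 58.7% of all.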

How the data were processed

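Genomic DNA from 2 passages of E14 cells was read by SCoTCH-seq. The authors filtered read pairs by adapter configuration with Cutadapt 4.6, aligned inserts to GRCm38 (mm10), removed duplicates with Picard 3.1.1 and called 1 state for each CpG site of a read pair. The deposited files give the count of calls of each state at each CpG site with the depth, for sites with at least 5 calls outside blacklisted regions. The deposited percent is the count divided by the depth, and all rows matched on recomputing to within 1e-06 percentage points. Neither was corrected by the spike-ins.

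Exons, coding frames and TSSs came from GENCODE vM21 and sequence from GRCm38.p6. States were oriented to the sense strand of the gene. Levels are means of per-site percentages, and own call rates are those of the duplexes in the same replicate, with the true state of a duplex site taken as its most frequent call. For each replicate, the 19 autosomal values of a difference entered an exact two-sided sign-flip permutation test, with a threshold of 0.05 after adjustment. The main values were adjusted over the 54 tests of 27 comparisons. Values under another setting, such as within classes of local CpG count or within exons, were adjusted over the tests of that setting, which can be fewer. A comparison was called when both replicates passed with the same sign. There is 1 condition, so samples were not tested against each other, and p-values measure only evenness along the genome. The steps were tested on simulated calls.

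Named exons are the 5 highest in HC/CH, the 5 highest in HM/MH (on the lower replicate) and the 5 lowest in MM (on the higher replicate) among entirely coding exons with at least 5 sites in exon and flanks. Named genes are the 5 largest and 5 smallest differences in HC/CH with the same sign in both replicates. Of these genes and of the sequences of named exons, 1 each is not reported here. List genes are up to 4 per list with the most exon sites in replicate 2, and some of these are named. The exons and the lists were chosen with earlier results of these data known. Python 3.11.15, NumPy 2.4.6, pandas 2.3.3, SciPy 1.17.1 and Matplotlib 3.10.9 were used. The labels give 10% FBS in the medium and the methods of the study another share, and which applies is not known.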

Additional observations from a re-analysis of the deposited data

How the results depend on the processing

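Values here are means of both replicates' differences in percentage points, and 12 of 27 comparisons were called, that is past the threshold with 1 sign in both replicates. Of 309 values under other settings, 238 had the sign of the main value and were called, or not called, as it was. The 309 include values with 1 replicate left out, which for a called comparison keep the call by construction. Settings within the bases beside the CpG, within classes of distance to the TSS or for codon positions within exons, or that join own call rates to another setting, were added after seeing the data. The cause of a change was not tested except where named.

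Within classes of local CpG count, exon against flank gave -3.62 for CC, now called, and 0.133 for MC/CM and -0.158 for HC/CH, both of the other sign, and 0.0522 for HM/MH and 0.00754 for HH, no longer called. With own call rates in addition they were -3.66, 0.0917, -0.165, -0.0421 and -0.00498. With the bases in addition they were -3.64, 0.114, -0.103, 0.0874 and 0.0155, and HC/CH by codon position was 0.243, no longer called. Exon against deep intron gave 0.0470 for HC/CH and 0.0805 for HM/MH within these classes, no longer called, and 0.0552 and -0.0102 with own call rates. MM against deep intron was called at 3.78 and 3.98 there, and also at 1.28 as share of calls, 1.90 at sites with at least 10 calls, 1.60 at sites measured in both replicates, 2.12 in exons more than 5 kb from TSSs and 1.02 in entirely coding exons.

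CC of exon against flank was also called at sites measured in both replicates (-0.588), in exons more than 5 kb from TSSs (-0.597), with flanks of 200 bp (-0.753) and per exon (-1.40 with and without own call rates). MM of exon against flank was not called at sites with at least 10 calls (1.29) or within the bases (0.506). At least 10 calls leaves few sites in replicate 2, and HH of exon against flank (0.0596), HM/MH of edge against middle (-0.244), HC/CH of late exons (-0.427) and HC/CH by codon position (0.509) were not called there either. HM/MH of edge against middle was not called at sites measured in both replicates (-0.173) or more than 5 kb from TSSs (-0.179). With an edge of 50 bp, HC/CH of edge against middle was called (-0.237) and MM had the other sign (0.774). Within genes, HC/CH of late exons was not called (-0.123, and -0.114 with own call rates). HM/MH by codon position was called with own call rates (0.242).

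Among comparisons that were not called, the sign changed as follows. At sites with at least 10 calls, HC/CH (0.148) and MM (0.0855) of acceptor-side against donor-side flanks, HM/MH of late exons (0.131), HC/CH (-0.139) and MM (0.237) of skipped exons and MC/CM between strands (-0.157) did so. At sites measured in both replicates, HC/CH of the flanks (0.0112), HM/MH of late exons (0.0336) and MC/CM between strands (-0.0239) did so. As share of calls, HC/CH of the flanks (0.0059), MM of edge against middle (0.0200), HC/CH of skipped exons (-0.00201) and MC/CM between strands (-0.00876) did so. More than 5 kb from TSSs, HC/CH (-0.0155) and HM/MH (0.00223) of skipped exons did so, as did HM/MH of skipped exons within genes (0.0363, and 0.0360 with own call rates).

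A called comparison passes in each replicate by construction. For the others, the remaining replicate gave -0.387 to 0.0506 for CC of exon against flank, 0.402 to 1.41 for MM against deep intron, -0.0315 to 0.0202, -0.109 to -0.0207 and -0.288 to -0.0699 for HC/CH, HM/MH and MM of the flanks. It gave -0.161 to -0.134 and -0.0456 to 0.0145 for HC/CH and MM of edge against middle, -0.0437 to -0.0216, 0.0314 to 0.0550 and -0.0701 to 0.0890 for HC/CH, HM/MH and MC/CM between strands, -0.122 to -0.0238 for HM/MH of late exons, 0.00397 to 0.0126, -0.216 to -0.0218 and -1.09 to -1.07 for HC/CH, HM/MH and MM of skipped exons, and 0.0878 to 0.252 for HM/MH by codon position. No paired analysis between groups of samples was possible because a block over replicates needs groups that share replicate numbers and there is 1 group. Exons, genes and their own flanks were compared within each replicate. Replicate 2 had a median of 6 calls a site and replicate 1 of 10.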
